A study of Rattus norvegicus with 3 samples.

Results

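The genes described here are 6 genes of TNF, NF-kB and STAT3 signalling in rat liver, taken from a table of 26404 Ensembl gene identifiers by identifier, with earlier results of these data known. They are the TNF receptor gene Tnfrsf1a (ENSRNOG00000031312), the NF-kB subunit gene Nfkb1 (ENSRNOG00000023258), the NF-kB inhibitor gene Nfkbia (ENSRNOG00000007390), the adhesion molecule gene Icam1 (ENSRNOG00000020679), the mitochondrial superoxide dismutase gene Sod2 (ENSRNOG00000019048) and the transcription factor gene Stat3 (ENSRNOG00000019742). All 6 passed the least level of 5 CPM in every comparison. RNA was sequenced from adult rat liver in 3 groups, each of which was 1 library made from the pooled RNA of 3 animals. The healthy group was untreated and not operated on. The saline group received 1 ml of saline and a 2/3 partial hepatectomy, an operation that leaves a remnant which regrows, and liver was taken 32 hours after surgery. The etanercept group received etanercept at 9 mg/kg in 1 ml, 16 to 18 hours before the same operation, and liver was again taken 32 hours after it. Strain and sex were not stated, and the design names no sham-operated group.

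TNF is a cytokine that binds 2 receptors on the cell surface, and the receptor encoded by Tnfrsf1a is the one found on most cell types. Its signal frees NF-kB, a dimer of which Nfkb1 encodes the p50 subunit, from inhibitor proteins such as IkB-alpha, the product of Nfkbia. NF-kB then enters the nucleus and raises transcription of target genes, among them Icam1, Sod2 and Nfkbia itself, which closes a negative feedback loop. In the liver after hepatectomy, TNF acts on Kupffer cells, the resident macrophages, which release interleukin-6, and interleukin-6 activates STAT3 in hepatocytes. Etanercept is a soluble TNF receptor fused to an antibody Fc part, and it holds TNF away from the receptors on cells. The comparison of etanercept with saline is therefore between rats given a TNF-binding protein before surgery and rats given saline. What the binding of TNF itself does to the RNA of this pathway was not tested.

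With 1 library per group there is no estimate of the spread between animals, so no test was run and every difference below is between single pooled libraries. Intervals are exact 95% intervals for counting error only. Levels are given as CPM, the usual scaling of counts to library size, here with the library size corrected by the trimmed mean of M-values (TMM). A gene is called where its levels differ 2-fold or more and the larger of them reaches 5 CPM. Gene reads numbered 5993834 in the healthy, 2645152 in the saline and 3639886 in the etanercept library. The etanercept library stood apart in that 77.4% of its uniquely aligned reads lay in no gene. That share was 21.7% for saline and 19.9% for healthy. The part of this difference in the results below was not tested, and it cannot be told apart from the treatment. Levels are not compared between genes, since the counts are not corrected for transcript length. In these bulk samples, fewer cells of a type and less RNA per cell cannot be told apart.

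The promoters of the NF-kB target genes are shown because 2 of these genes, Nfkbia and Sod2, had the largest differences of the 6 genes between the etanercept and saline libraries, and Icam1 had the next. Each sequence is the 250 bases before the transcript start in the RefSeq annotation of GRCr8, 5′ to 3′ on the gene's strand, and all 6 genes had an entry. Capitals mark matches on either strand to GGNNNTTCC, a loose form of the sequence that NF-kB binds, or to a stricter 10-base kB consensus. They also mark matches on either strand to TTCNNNGAA, the core of the sequence that STAT proteins bind.
Nfkbia, chr6:78597073-78597322, minus strand: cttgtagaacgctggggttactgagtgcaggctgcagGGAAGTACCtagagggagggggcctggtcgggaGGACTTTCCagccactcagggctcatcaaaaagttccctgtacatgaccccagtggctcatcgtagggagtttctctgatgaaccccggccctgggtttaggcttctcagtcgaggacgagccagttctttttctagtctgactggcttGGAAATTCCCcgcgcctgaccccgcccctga
Icam1, chr8:27829595-27829844, plus strand: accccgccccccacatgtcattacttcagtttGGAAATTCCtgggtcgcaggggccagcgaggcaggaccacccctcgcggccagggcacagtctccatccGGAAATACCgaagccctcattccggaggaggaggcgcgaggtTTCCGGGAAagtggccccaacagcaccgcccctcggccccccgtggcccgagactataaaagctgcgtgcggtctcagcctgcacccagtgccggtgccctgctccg
Sod2, chr1:50050169-50050418, minus strand: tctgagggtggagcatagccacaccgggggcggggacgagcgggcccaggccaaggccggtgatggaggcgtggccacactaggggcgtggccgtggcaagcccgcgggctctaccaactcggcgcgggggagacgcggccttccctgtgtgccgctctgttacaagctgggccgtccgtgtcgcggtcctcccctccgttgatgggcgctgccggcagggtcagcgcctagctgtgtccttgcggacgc
Matches were counted over the whole 300-base window, which runs on to 50 bases after the start. The Nfkbia window held 3 places that match GGNNNTTCC, first bases at -213, -180 and -31 from the start. The place at -31 also matches the stricter 10-base kB consensus, on the opposite strand, which 7.51% of all 33469 promoter windows hold. The Icam1 window held 2 places that match GGNNNTTCC, at -218 and -149, and 1 palindromic match to TTCNNNGAA at -107. The Sod2 window held no match to these patterns. Nfkb1 had a kB consensus match, GGGAATTTCC, at position 4 after its start, and Tnfrsf1a and Stat3 had 1 match each to GGNNNTTCC. The patterns were chosen after these promoters were seen, so nothing is read from the number of genes that match. A match to GGNNNTTCC was present for 5 of the 6 genes and in 18.3% of all windows, and a match to TTCNNNGAA for 1 of the 6 genes and in 8.87% of all windows. The loose pattern contains part of the strict one, so the 2 can mark the same place. These matches describe letters in the reference genome and were not tested as binding sites.

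Nfkbia and Sod2 were called lower with etanercept than with saline, and none of the 6 genes was called higher. Icam1 and Nfkb1 were lower by less than 2-fold, with intervals that lay below 1. Tnfrsf1a and Stat3 differed by less than counting error with TMM. With total gene reads their log2 folds were -0.32 and -0.37, which lay below their TMM intervals. Over all 9991 genes tested, 37.5% were called, 18.3% as higher and 19.2% as lower, so 2 lower genes of 6 are not far from what the whole table shows. The median log2 fold was -0.47 over the 6 genes and 0.00 over all genes tested. The intervals of 4 genes lay wholly below 1, a position held by 32.7% of all genes tested. No interval lay wholly above 1, where 33.1% of all genes lay. With scaling by total gene reads, the share of higher genes among all called genes was 25.4%, against 48.8% with TMM, and the same 2 of the 6 genes were called.

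**Figure D1:**
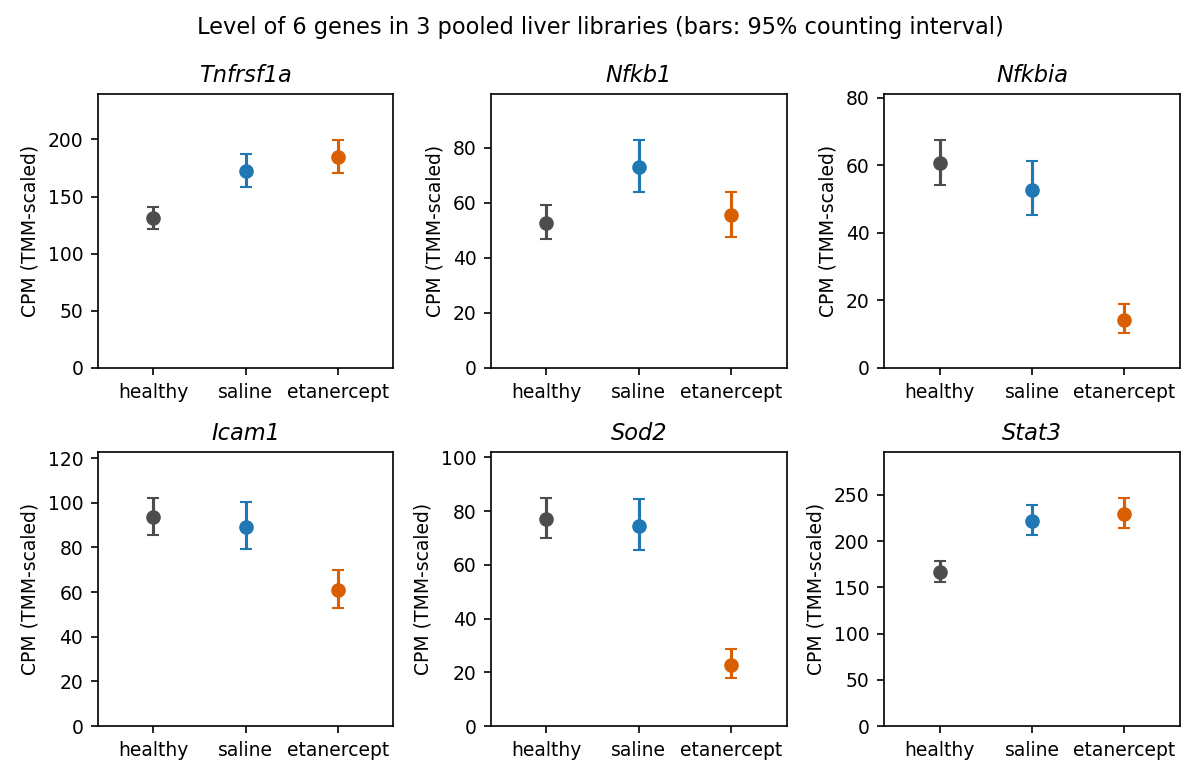
Level of each of the 6 genes (vertical axis, TMM-scaled CPM, starting at 0) in the healthy, saline and etanercept libraries. Points are single pooled libraries and bars are 95% counting intervals; Nfkbia and Sod2 are lowest in the etanercept library, at 14.2 and 22.9 CPM, while Tnfrsf1a and Stat3 are lowest in the healthy library, at 131 and 167 CPM.

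Tnfrsf1a, the receptor at the head of the pathway, was counted 704 times in the healthy, 557 times in the saline and 613 times in the etanercept library. These counts correspond to 131, 172 and 185 CPM. The healthy library was lowest and its interval of 122 to 141 CPM did not overlap those of the hepatectomy libraries, which overlapped each other (158 to 187 in saline, 170 to 200 in etanercept). The fold of etanercept over saline was 1.07, with an interval of 0.955 to 1.21. That fold lies near the middle of the table, with 53.3% of all genes tested below it. Its direction depends on the scaling, since the log2 fold was 0.10 with TMM and -0.32 with total gene reads. Saline over healthy was 1.31 (1.17 to 1.47), and etanercept over healthy was 1.41 (1.26 to 1.57).

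Nfkb1 encodes a precursor that is processed to p50, the DNA-binding subunit of the common NF-kB dimer. It had 283 counts in the healthy, 236 in the saline and 184 in the etanercept library, or 52.7, 72.9 and 55.4 CPM. The saline library was highest. Its interval of 63.9 to 82.9 CPM lay above that of the healthy library, 46.7 to 59.2, and just met that of the etanercept library, 47.7 to 64.0. The etanercept over saline fold of 0.760 had an interval of 0.623 to 0.925, and 36.0% of all genes tested had a lower fold. Etanercept and healthy differed by less than counting error, at a fold of 1.05 (0.869 to 1.27).

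Nfkbia encodes the inhibitor that holds NF-kB in the cytoplasm, and its RNA is a common readout of NF-kB activity because NF-kB induces it. The counts were 326 in the healthy, 171 in the saline and 47 in the etanercept library, corresponding to 60.7, 52.8 and 14.2 CPM. The etanercept library was far below the others, with an interval of 10.4 to 18.8 CPM against 45.2 to 61.4 in saline and 54.3 to 67.7 in healthy, and the intervals of saline and healthy overlapped. At the level of the saline library, 175 counts would have been found in the etanercept library where 47 were. The level was 3.71-fold lower in etanercept than in saline, with an interval of 2.69 to 5.27. Only 7.36% of all genes tested, and 3.30% of the 3996 tested genes with a mean of 20 to 100 CPM, had a lower fold.

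Sod2, whose enzyme removes superoxide in mitochondria and whose gene is induced by TNF through NF-kB in many cell types, came next to Nfkbia in the size of its difference. It had 414 counts in the healthy, 241 in the saline and 76 in the etanercept library, or 77.1, 74.5 and 22.9 CPM. Healthy and saline overlapped almost fully (69.8 to 84.9 and 65.4 to 84.5 CPM), and the etanercept interval of 18.0 to 28.6 CPM lay far below both. The etanercept library would have held 247 counts at the saline level. Its level was 3.24-fold below saline, with an interval of 2.50 to 4.27, and 8.93% of all genes tested had a lower fold. In the class of 20 to 100 CPM, 4.45% of genes lay below it.

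Icam1 encodes an adhesion molecule that leukocytes bind on endothelium and on other cells exposed to TNF. Its counts were 503 in the healthy, 289 in the saline and 202 in the etanercept library, or 93.6, 89.3 and 60.8 CPM. Healthy and saline overlapped (85.6 to 102 and 79.3 to 100.2 CPM), and etanercept was lower, at 52.7 to 69.8 CPM. Icam1 was 1.47-fold lower in etanercept than in saline (1.22 to 1.77). This is a smaller difference than those of Nfkbia and Sod2 and is not past the fold of 2. It is also common in the table, since 31.1% of all genes tested had a lower fold. With scaling by total gene reads the log2 fold was -0.98, just short of the 2-fold limit.

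Stat3, the transcription factor that interleukin-6 activates by phosphorylation, had 896 counts in the healthy, 719 in the saline and 763 in the etanercept library. The levels were 167, 222 and 230 CPM. As for Tnfrsf1a, the healthy library was lowest (156 to 178 CPM) and the hepatectomy libraries overlapped (206 to 239 and 214 to 247 CPM). The etanercept over saline fold was 1.03, with an interval of 0.933 to 1.15, and the log2 fold changed sign with the scaling, from 0.05 with TMM to -0.02 with upper-quartile factors and -0.37 with total gene reads. RNA counts carry no information on the phosphorylation that switches the protein on.

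**Figure D2:**
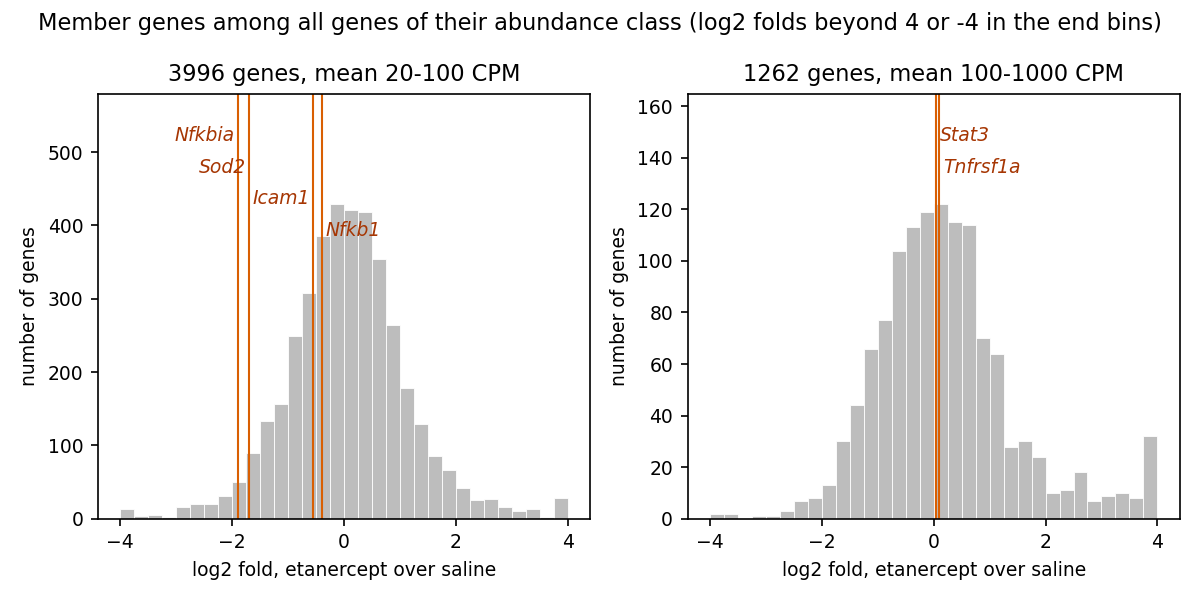
Number of genes (vertical axis) by log2 fold of etanercept over saline (horizontal axis) among the genes with a mean of 20 to 100 CPM and of 100 to 1000 CPM, with orange lines at the 6 genes. Nfkbia and Sod2, at -1.89 and -1.70, lie in the lower tail of their class, and Stat3 and Tnfrsf1a, at 0.05 and 0.10, lie near the middle of theirs.

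Between the saline and healthy libraries, 0 of the 6 genes were called. Over the 9755 genes tested 19.0% were called, 9.32% as higher and 9.66% as lower. Tnfrsf1a, Nfkb1 and Stat3, which encode the receptor and the transcription factors, were higher in saline by 1.31-fold, 1.38-fold (1.16 to 1.65) and 1.33-fold (1.21 to 1.47), and all 3 intervals lay above 1. Intervals above 1 were found for 22.3% of all genes tested and intervals below 1 for 28.8%. The target genes Nfkbia, Sod2 and Icam1 had folds of 0.872 (0.719 to 1.05), 0.967 (0.821 to 1.14) and 0.954, with a lower bound of 0.822, all within counting error. Tnfrsf1a and Stat3 belong to the class of 100 to 1000 CPM, in which the median log2 fold was -0.31 and 86.9% and 87.7% of genes had a lower fold than theirs. With total gene reads all log2 folds of this comparison shift by 0.45. The folds of Nfkbia, Sod2 and Icam1 then turn positive, to 0.25, 0.40 and 0.38 on the log2 scale, and the share of higher genes among all called genes becomes 84.6%, against 49.1% with TMM.

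**Figure D3:**
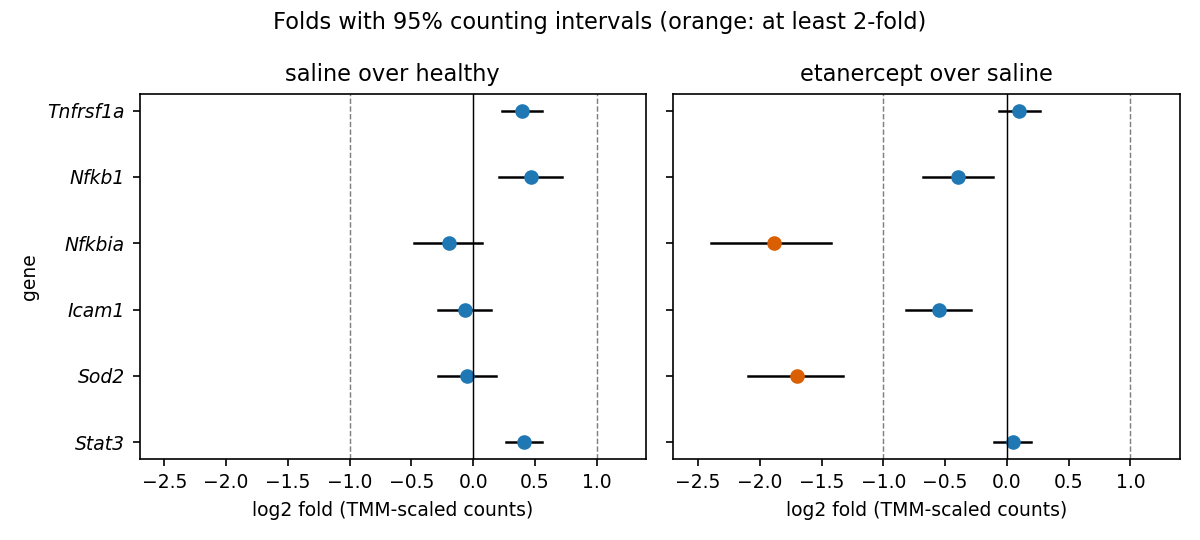
Log2 folds (horizontal axis) of the 6 genes for saline over healthy and for etanercept over saline, with 95% counting intervals as lines, no change as a solid line and the 2-fold limits dashed. Orange points are at least 2-fold; Nfkbia and Sod2 are the 2 such genes in etanercept over saline, and saline over healthy has none.

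In etanercept against healthy, Nfkbia and Sod2 were the 2 genes called. This comparison shares the etanercept library and the healthy library with those above, and Nfkbia and Sod2 differed between saline and healthy by less than counting error, so these values are no independent support. The background was 46.0% of 10069 genes called, 21.9% as higher and 24.0% as lower. Nfkbia was 4.25-fold lower than healthy (3.15 to 5.95) and Sod2 3.35-fold lower (2.63 to 4.36). Icam1 was 1.54-fold lower (1.30 to 1.82). This fold passes a limit of 1.5-fold, as 34.0% of all genes do in that direction, but its interval reaches below that limit. Stat3 had a fold of 1.38 (1.25 to 1.52). Of the 6 intervals 3 lay below 1 and 2 above it, positions held by 38.0% and 35.2% of all genes. For Nfkbia, Sod2 and Icam1 the etanercept library thus lay below both other libraries, with intervals that did not overlap theirs.

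The ratio of 2 genes within a library does not depend on how libraries are scaled, so the 15 pairs of the 6 genes were also compared by their count ratios. Between etanercept and saline, 12 of 15 ratios changed by more than counting error. So did 73.8% of all pairs of the 5258 tested genes with a mean of 20 to 1000 CPM, so the count is near the background, and the 15 pairs share 6 genes. Per read of Sod2 there were 2.31 reads of Tnfrsf1a with saline and 8.07 with etanercept, a 3.49-fold change (2.61 to 4.69). Reads of Stat3 per read of Nfkbia differed 3.86-fold (2.73 to 5.54) in the same direction. Nfkb1 per read of Nfkbia, the subunit against its inhibitor, was 1.38 in saline and 3.91 in etanercept, a 2.84-fold change (1.92 to 4.23).

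The other 3 ratios changed by less than counting error. Nfkbia to Sod2 changed 0.872-fold (0.562 to 1.34), Tnfrsf1a to Stat3 1.04-fold (0.887 to 1.21), and Icam1 to Nfkb1 0.896-fold (0.683 to 1.18). These intervals still allow changes of the sizes they span. Among the target genes, reads of Icam1 per read of Nfkbia changed 2.54-fold (1.74 to 3.76) and per read of Sod2 2.22-fold (1.60 to 3.08). Icam1 was thus less far below saline than the other target genes, beyond counting error. Between saline and healthy, 9 of 15 ratios changed by more than counting error, against 62.9% of all pairs of such genes. The 9 are the pairs of one of Tnfrsf1a, Nfkb1 and Stat3 with one of Nfkbia, Sod2 and Icam1, which restates the folds given above for these genes. The largest of them, Nfkb1 per read of Nfkbia, was 0.868 in healthy and 1.38 in saline, a 1.59-fold change (1.22 to 2.06).

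**Figure D4:**
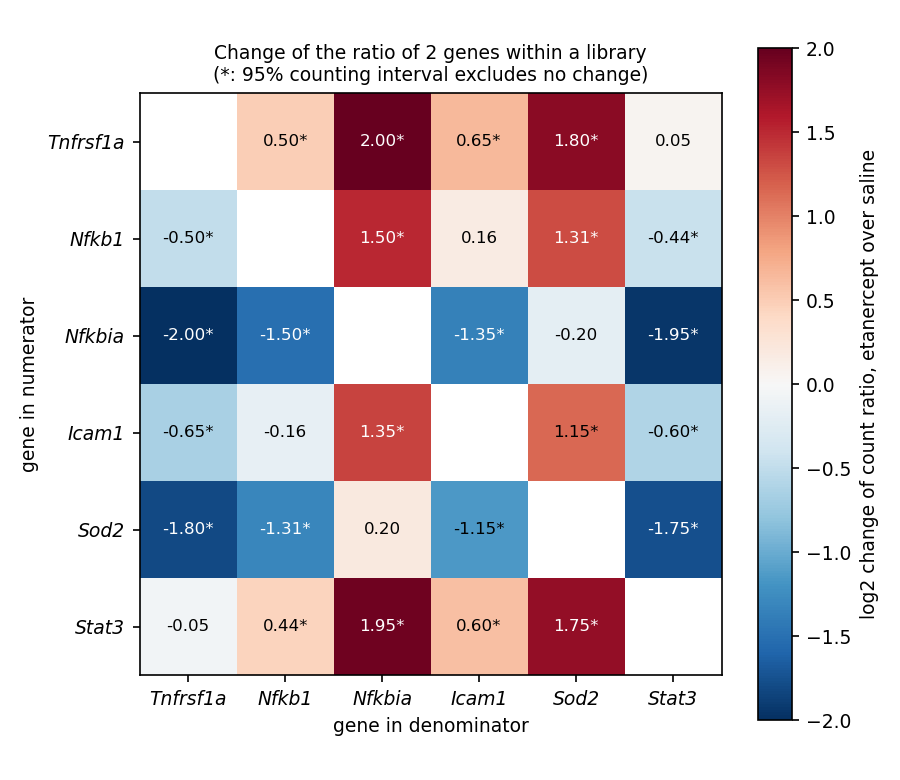
Log2 change between the saline and etanercept libraries of the count ratio of each pair of genes (numerator in rows, denominator in columns). Asterisks mark the 12 of 15 pairs whose 95% counting interval excludes no change; rows of Nfkbia and Sod2 are blue against the other 4 genes.

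The genes were also placed by their 2 log2 folds against healthy, and likeness was measured as the distance in that plane over 10347 genes and 3 libraries. Tnfrsf1a and Stat3 lay 0.04 apart, and only 2 genes were nearer to Tnfrsf1a than Stat3 was. Its nearest gene was ENSRNOG00000006247, at 159, 209 and 223 CPM in the healthy, saline and etanercept libraries. Nfkbia and Sod2 lay 0.37 apart, with 171 genes nearer to Nfkbia than Sod2. The nearest gene to Nfkbia was ENSRNOG00000005377, at 14.5, 12.4 and 3.31 CPM. Within a distance of 0.25 there were 309 genes around Tnfrsf1a and 299 around Stat3, but 80 around Nfkbia and 135 around Sod2. With 3 libraries there are only 2 such folds per gene, so closeness by itself is common and says nothing of shared control.

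Under 5 ways of scaling, Nfkbia, Sod2, Icam1 and Nfkb1 stayed lower in etanercept than in saline, while Tnfrsf1a and Stat3 changed direction. Each scaling moves all log2 folds of a comparison by the same amount, here from -0.42 to 0.03 relative to TMM. The lower genes lay too far from 0 for such shifts to change their direction, so this is no separate support. The log2 fold of Nfkbia ran from -2.31 to -1.80 and that of Sod2 from -2.12 to -1.64 over the alternatives. The lowest values came from total gene reads, which shift all log2 folds of this comparison by -0.42.

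**Figure D5:**
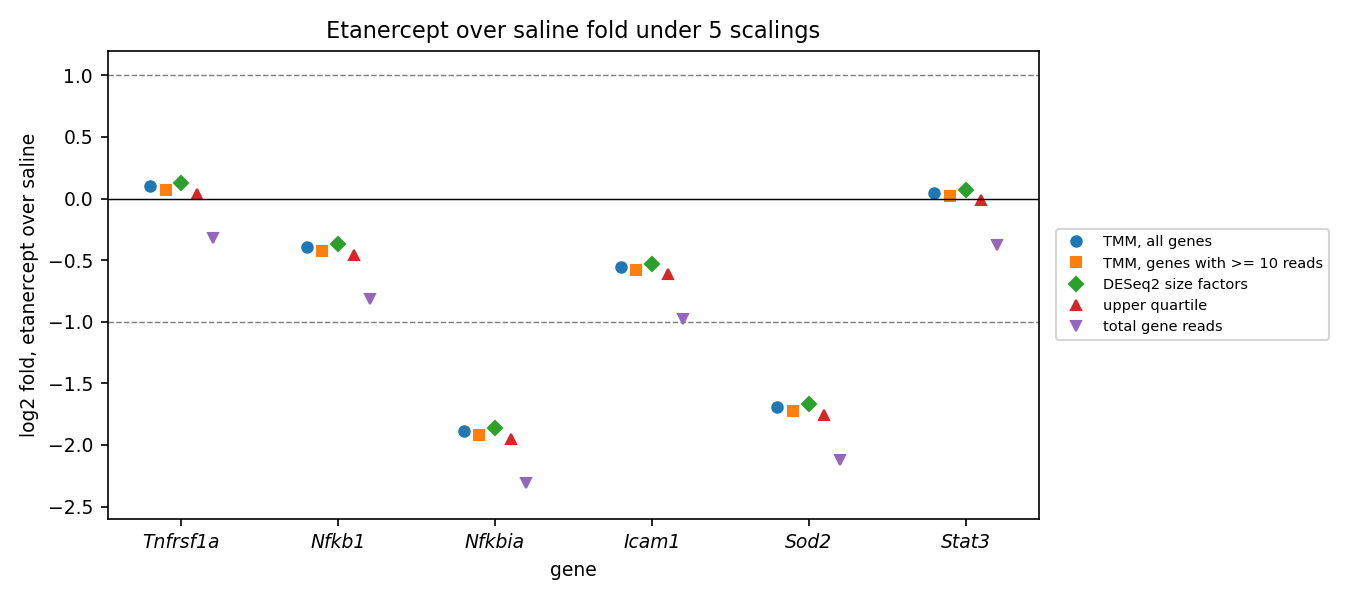
Log2 fold of etanercept over saline (vertical axis) for the 6 genes under 5 scalings of the libraries, with dashed lines at 2-fold. Nfkbia and Sod2 lie below the lower dashed line under all 5, and Tnfrsf1a and Stat3 lie on both sides of 0.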

How the data were processed

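RNA from 3 pooled liver libraries was analysed. Per the labels' protocols, RNA was extracted with mirVana reagents, depleted of ribosomal RNA with RiboMinus and made into libraries with an Ion Total RNA-Seq kit. The authors deposited unnormalized counts of reads for each Ensembl gene. TopHat2 2.0.13 and HTSeq 0.6.1 are named per the submitters' processing notes. Build, annotation and strand setting of the counting: not given in the sources used here, so antisense reads may be included. The 5 summary rows stayed out of library sizes; in the libraries with 5993834, 2645152 and 3639886 gene reads (healthy, saline, etanercept), 79.4%, 77.5% and 20.9% of uniquely aligned reads were gene reads. None of the 6 genes overlaps another gene in the RefSeq annotation of GRCr8.

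Counts were scaled by TMM (edgeR 4.0.16, R 4.3.3; factors 0.896, 1.22 and 0.912). Folds used a pseudocount of 0.5. Intervals are exact Clopper-Pearson (folds), Poisson (levels) and conditional odds-ratio intervals (ratios), at 95% (scipy 1.17.1). For the share over all gene pairs, a normal interval of the log odds ratio was used, which marks the same numbers of the 15 pairs, 12 and 9. As a floor for a count of 0, a fixed 3 counts was taken, at most 0.927 CPM, which is not a bound of the Poisson intervals. Reads without molecular identifiers are not independent molecules, so intervals cover counting error only.

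The 6 genes, the lists and the comparisons were chosen with earlier results of these data known. All 6 genes were named whatever their values; their symbols come from the definition of the gene set, since the reference table gave 0 Ensembl identifiers. For the same reason the 9 pathway lists and 7 lists of cell type markers, hepatocyte markers included, were not analysed here. The nearest gene is given for the genes with the highest and the lowest etanercept over saline fold. Sequence patterns were chosen after the promoters were seen. Alternatives were DESeq2 1.42.0 size factors, upper-quartile factors, total gene reads, TMM on genes with at least 10 reads per library, a pseudocount of 5, other least levels and a fold of 1.5.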

Additional observations from a re-analysis of the deposited data

Results flagged for a closer look

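Several tallies outside the counts of the 6 genes were larger after hepatectomy than in healthy liver. Of uniquely aligned reads, 77.4% with etanercept and 21.7% with saline fell in no gene, where the healthy value was 19.9%. The share in more than 1 gene was 1.69% with etanercept, 0.871% with saline and 0.729% in healthy liver. Entries for reads aligned to several places numbered 10.1 per gene read with etanercept, 5.35 with saline and 3.99 in healthy liver; one read can give several entries. The part of these reads in the folds of Nfkbia and Sod2 was not tested.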

How the results depend on the processing

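Nfkbia and Sod2 were the genes called lower in etanercept against saline, and no gene of the 6 was called in saline against healthy, under all 9 alternatives. Against healthy the same 2 genes were called in etanercept, with Icam1 joining them at a fold of 1.5. Of 90 single-gene folds recomputed, 79 stayed within their counting interval and 11 did not, all 11 with total gene reads. No called gene changed direction. These 90 are not separate checks, since each scaling moves all 6 genes of a comparison by the same amount. Over all genes, the count called in etanercept against saline was 3742, and became 2085 with at least 20 CPM, 8078 with no least level and 5964 with a fold of 1.5. In saline against healthy 1851 became 950, 5127 and 3848 under the same settings. In etanercept against healthy 4627 became 2711 with at least 20 CPM and 8346 with no least level. No paired analysis was possible because each group is 1 library, and for the same reason none could be left out. Depth limits Nfkbia most, with 47 counts in the etanercept library.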
